A study of Mus musculus with 10 samples.

Results

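The genes described here are the cytosolic translation factors and the aminoacyl-tRNA synthetases of the mouse, measured in newborn brains that carry 1 or 2 X chromosomes. They were taken by gene symbol as the array annotation spells it: the initiation factors eIF1 to eIF6, the elongation factors eEF1 and eEF2, the release factors Etf1 and Gspt1, and the synthetases. The symbols gave 73 genes of 8251 on the array, measured by 99 of its 12488 probe sets, of which 10833 have 1 gene symbol. The spelling also took in Eef1akmt1, which encodes a methyltransferase that modifies eEF1A and is not itself a translation factor. RNA of whole brain at postnatal day 0 was hybridised to 10 arrays in 4 groups. XmO animals have 39 chromosomes and a single, maternal X, Xm in the labels (3 arrays). Their XX_Paf controls have 40 chromosomes and come from the same cross, written C57BL/6J x C3H/Paf (3 arrays). XpO animals have 39 chromosomes and a single, paternal X, Xp in the labels (2 arrays). Their XX_InX controls have 40 chromosomes (2 arrays), and the cross of both is written In(X)/C3H x C57BL/6J. In(X) is an X chromosome with an inversion and Paf (patchy fur) an X-linked mutation, both used in breeding single-X mice, and the labels do not say how the monosomy arose in each animal. The labels do not say either whether an array holds 1 animal or a pool, so p-values measure the spread between arrays, which may be technical.

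Translation begins when eIF2, a complex of an alpha, a beta and a gamma subunit, brings the initiator tRNA to the small ribosomal subunit. eIF2B recharges it with GTP, and stress kinases block that step by phosphorylating the alpha subunit, after which bulk translation falls and the transcription factor Atf4 turns on amino acid genes, many tRNA synthetases among them. The gamma subunit binds both GTP and the tRNA, and in the mouse it is encoded on the X by Eif2s3x, which escapes X inactivation, and on the Y by Eif2s3y. XO and XX animals have no Y, so a single X leaves 1 copy of the gamma gene where XX animals have a pair that are both read. The question was whether other parts of the machinery, the eIF2 partner subunits first, differ where Eif2s3x is lower.

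The starts of the eIF2 genes are shown first because the comparison turns on them. Each window runs from 80 bases before to 20 bases after the annotated transcription start (RefSeq, GRCm38.p6), 5′ to 3′ on the gene's strand. Capitals mark a C followed by at least 4 pyrimidines, each C or T, at the start or up to 5 bases after it. This is the form of the 5′ terminal oligopyrimidine tract by which mTOR controls many translation factor mRNAs.
Eif2s3x, chrX:94212632-94212731, minus strand: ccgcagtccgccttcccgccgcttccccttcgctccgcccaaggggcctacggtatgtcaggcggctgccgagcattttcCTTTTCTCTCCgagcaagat
Eif2s3y, chrY:1010515-1010614, plus strand: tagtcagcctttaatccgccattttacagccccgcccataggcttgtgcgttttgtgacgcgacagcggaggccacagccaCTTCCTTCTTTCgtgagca
Eif2s2, chr2:154892887-154892986, minus strand: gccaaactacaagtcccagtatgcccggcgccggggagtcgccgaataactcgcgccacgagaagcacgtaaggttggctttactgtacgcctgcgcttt
Eif1ax, chrX:159372098-159372197, plus strand: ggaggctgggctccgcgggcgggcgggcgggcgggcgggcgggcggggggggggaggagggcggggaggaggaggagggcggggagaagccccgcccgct
Both gamma genes carry such a run, of 11 bases from the annotated start in Eif2s3x and of 12 bases from the base after it in Eif2s3y. Counted with the c just before its start, the Eif2s3x run is 12 bases. The windows of the beta gene Eif2s2 and of the other X-linked member, Eif1ax, hold none in those positions. Windows were found for 57 of the 73 genes, and not for Cars, Eef1akmt1, Eef1d, Eef1g, Eif1a, Eif3e, Eif4ebp1, Eif4g2, Eif6, Etf1, Hars, Lars, Nars, Rars, Vars and Wars. Searched on the gene's strand, a run exactly at the annotated start was found in 2 of the 72 windows of members (Eif2s3x and Eif3f), or 2.78%, and in 2.51% of all 32851 promoter windows. Allowing a shift of 5 bases either way gave 18 of 72, or 25.0%, beside 18.3% of all windows.

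Atf4 and its partners bind an element of the form TGATGNAA, which was searched on both strands of the full 300 bases (250 before and 50 after the start). It was in 5 of the 10 windows of cytosolic synthetases, beside 3.97% of all windows, in 0 of the 5 windows of mitochondrial synthetases, and in 1 of the 3 windows of eIF2 subunits, that of Eif2s3x. The matches are shown because synthetase genes are among the known targets of Atf4. Capitals mark the match, with up to 20 bases on each side. A match lies in no start run, and it is a match of letters, not a shown binding site.
Aars, chr8:111033710-111033757, plus strand: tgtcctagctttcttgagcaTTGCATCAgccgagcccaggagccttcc
Gars, chr6:55037951-55037998, plus strand: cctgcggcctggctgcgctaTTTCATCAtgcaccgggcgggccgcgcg
Iars, chr13:49682117-49682159, plus strand: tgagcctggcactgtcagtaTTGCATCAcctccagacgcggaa
Tars, chr15:11399646-11399693, minus strand: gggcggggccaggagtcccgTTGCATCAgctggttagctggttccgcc
Yars, chr4:129189886-129189932, plus strand: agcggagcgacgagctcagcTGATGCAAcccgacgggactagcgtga
Eif2s3x, chrX:94212720-94212767, minus strand: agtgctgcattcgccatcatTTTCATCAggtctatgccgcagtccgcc
Aars has a further match 10 bases after its start, and the kinase gene Eef2k, which inhibits elongation, has 1 as well. Of the matches printed, that of Yars reads on the gene's strand and the others on the opposite one.

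Values are intensities on the authors' linear scale, and differences are log2 fold changes from limma. Of the 99 probe sets, 85 of 68 genes were bright enough to be tested. The 14 left out reached at most 141.0 on any array, and 7 of them never exceeded the signal of Y-linked genes, whose transcripts cannot be made in animals without a Y. That signal, the highest of 9 Y-linked probe sets on each array, ran from 33.6 to 136.6. The 7 include Eif2s3y, which is itself among those 9 and so cannot exceed the signal by construction. Among the tested members, 74 were above that level on every array. Xist, the RNA of the inactive X, was at 21.3 to 49.9 on the 5 XO arrays and at 1673.4 to 4082.1 on the 5 XX arrays. Neuronal markers were bright on every array (summed intensity of 9 probe sets 68012.1 to 80249.8), with 8 of the 9 above the Y-linked level on all arrays. The array XX_Paf 2 stood apart in skeletal muscle genes, with Acta1 at 2448.2 against 179.6 to 574.3 on the other 9 arrays. The summed muscle markers (11 probe sets of 7 genes, 2 above the Y-linked level on all arrays and 4 at or below it on all, from Myh3, Myh8, Mylpf and Tnnc2) ran from 763.9 to 1259.1 in XmO, 797.6 to 3759.3 in XX_Paf, 737.6 to 983.9 in XpO and 870.7 to 1001.3 in XX_InX. In bulk tissue, fewer cells of a type and less RNA per cell cannot be told apart.

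Eif2s3x was lower in both kinds of XO brain. Its intensity was 4737.5, 4335.7 and 4617.4 in XmO, against 5588.3, 6068.7 and 5651.8 in XX_Paf. It was 3931.8 and 3755.0 in XpO, against 6101.5 and 5463.4 in XX_InX. Every XO array was below every XX array. Without XX_Paf 2 the log2 fold change of XO over XX was -0.44. Over both crosses the level in XO was 72.6% of that in XX (95% interval 65.2% to 80.8%; log2 fold change -0.46, SE 0.07). Among all 8695 tested probe sets its p ranked 2nd, behind Xist, and after Benjamini and Hochberg adjustment it did not pass in limma (adjusted p = 0.104). XmO were higher than XpO without overlap (log2 fold change 0.25, SE 0.10; limma adjusted p = 0.969), and the effect of the single X did not differ past the threshold between the crosses (difference 0.25, SE 0.14; limma adjusted p = 0.860).

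**Figure D1:**
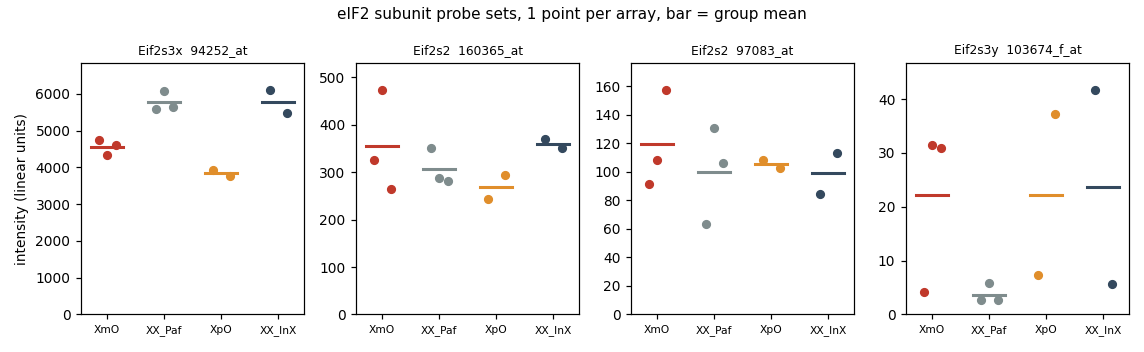
Intensity (linear units, vertical axis from 0) of the eIF2 subunit probe sets in XmO, XX_Paf, XpO and XX_InX, with 1 point per array and a bar at the group mean. Eif2s3x is lower on all 5 XO arrays, the 2 probe sets of Eif2s2 overlap between XO and XX within the Paf cross, and Eif2s3y stays between 2.6 and 41.7.

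The Y-linked gamma gene Eif2s3y had no value over 41.7 on any array. It is 1 of the 9 Y-linked probe sets that mark the background here, and it was too dim to be tested.

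Eif2s2 encodes the beta subunit, which binds the guanine exchange and activation factors. Its brighter probe set was at 326.6, 473.6 and 264.9 in XmO, against 351.0, 287.0 and 281.9 in XX_Paf, where the groups overlap. In XpO it was at 243.3 and 293.5, against 369.3 and 351.6 in XX_InX, where they do not. The level in XO was 91.5% of that in XX, with an interval from 71.2% to 118% (log2 fold change -0.13, SE 0.17; limma adjusted p = 0.9995; exact permutation of genotype within crosses, two-sided, p = 0.517). The second probe set gave 91.7, 108.2 and 157.2 in XmO, against 63.7, 130.7 and 105.8 in XX_Paf. It gave 108.1 and 102.3 in XpO, against 84.5 and 113.4 in XX_InX, with overlap in both crosses (log2 fold change 0.19, SE 0.27; limma adjusted p = 0.9995; exact permutation p = 0.383). Its interval ran from 75.4% to 172% of the XX level. The second probe set was dim, and its 84.5 on XX_InX 1 was below the Y-linked signal of that array, 102.9. A difference in Eif2s2 was not detectable with these arrays, and the interval of the brighter probe set still includes a fall as large as that of Eif2s3x. The alpha subunit gene Eif2s1 was not analysed here.

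The log2 fold change of Eif2s3x minus that of Eif2s2, taken from the difference of their log2 values on each array, was -0.34 for the brighter Eif2s2 probe set (95% interval -0.84 to 0.17, n = 10 arrays) and -0.65 for the second (interval -1.29 to -0.02). These differences carry the level of Eif2s3x, which was known to be lower in XO when it was chosen, so they are given as a description with no test. The second Eif2s2 probe set ran from 63.7 to 157.2, near the Y-linked signal, so its interval is weak evidence of an unequal change. The 120 ways of assigning genotype within crosses allow no p under 0.0167 for the Eif2s2 probe sets.

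The other parts of the eIF2 cycle showed no value that passed in XO against XX. eIF2B is the exchange factor. Its subunit genes gave levels in XO of 87.6% of XX for Eif2b1, 81.3% for Eif2b2, 99.5% for Eif2b4, and 105% and 102% for the probe sets of Eif2b5, all with intervals that include 100%. Eif2b3 was not analysed here. Among the eIF2 kinases, Eif2ak1, which responds to low heme, was at 83.0%, Eif2ak3 (PERK), which senses protein folding in the endoplasmic reticulum, at 92.5%, and Eif2ak4 (GCN2), which senses uncharged tRNA, at 120%. The kinase gene activated by double-stranded RNA, Eif2ak2, was too dim to be tested, at 42.7 to 113.1. Eif2ak1 was at 444.3, 110.9 and 395.9 in XmO, against 355.2, 522.7 and 429.5 in XX_Paf, and the low XmO 2 stands apart from the rest. The factors that can deliver initiator tRNA without eIF2 were Eif2a at 98.3% and Eif2d at 96.4% on its brighter probe set. The other Eif2d probe set did not exceed the Y-linked signal on 6 of the 10 arrays, and no percentage is given for it.

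Over the whole group, 0 of 85 tested member probe sets passed in XO against XX by limma, where 0.0115% of all 8695 passed. At an unadjusted p under 0.05 there were 2 of 85, both lower, beside 2.6% of all. These were Eif2s3x and 1 probe set of Eif5b, the GTPase that joins the ribosomal subunits. That Eif5b probe set did not exceed the Y-linked signal on 1 array. The arrays of XO and XX did not overlap in the same direction in both crosses for 0 members higher and 1 lower, again Eif2s3x, where 0.357% and 0.495% of all probe sets were so. Estimates were higher in XO for 44 of the 85, a share of 51.8% beside 50.1% of all probe sets, with a median log2 fold change of 0.01 beside 0.00 over all. The median size of the estimates regardless of sign was 0.09 for members and 0.09 for all.

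**Figure D2:**
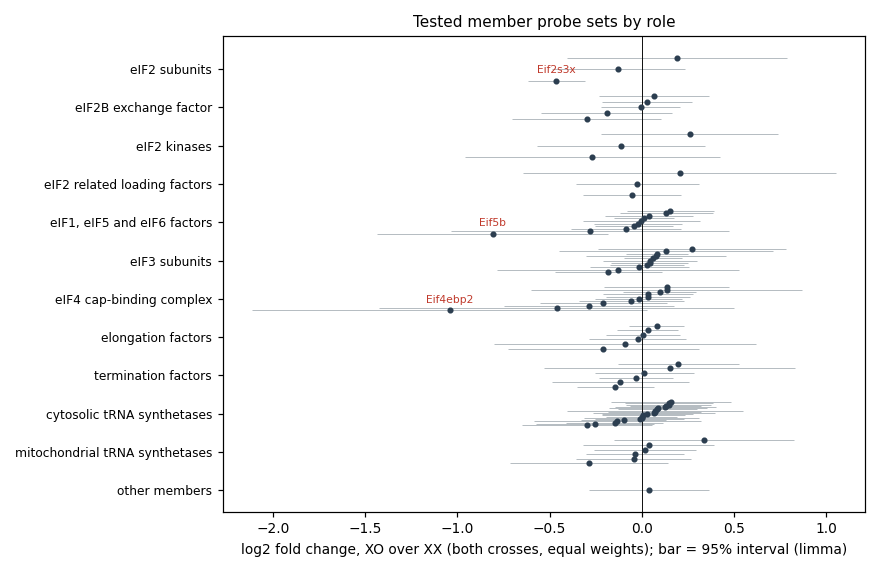
Log2 fold change of XO over XX (horizontal axis, both crosses with equal weight) of the 85 tested member probe sets, grouped by role, with points for estimates and lines for 95% intervals from limma. The medians by role lie between -0.13 (eIF2 subunits) and 0.05 (cytosolic synthetases), and the named points are those of Eif2s3x (-0.46), Eif5b (-0.81) and Eif4ebp2 (-1.04). The named Eif5b and Eif4ebp2 probe sets each did not exceed the Y-linked signal on 1 array.

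By role, the eIF3 subunits, which scaffold the small ribosomal subunit, had higher estimates in XO for 8 of 11 probe sets, with a median of 0.04. The cap-binding eIF4 group had 5 of 11 higher and a median of -0.02. The elongation factors had 3 of 6 higher, the release factors 3 of 6, the cytosolic synthetases 12 of 20 (median 0.05) and the mitochondrial synthetases 3 of 6. None of these passed, and the ranges of the role groups overlapped.

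The members of highest signal showed how narrow the intervals could be. Eef1a1, which carries aminoacyl-tRNA to the ribosome, was at 38424.9, 32017.2 and 35910.0 in XmO, against 33027.8, 36301.7 and 31009.0 in XX_Paf. It was at 37193.6 and 33189.7 in XpO, against 37447.5 and 33920.5 in XX_InX, and its log2 fold change of XO over XX was 0.03 (95% interval -0.13 to 0.20). The translocase Eef2 gave 0.08 (interval -0.07 to 0.23), the helicase Eif4a2 0.10 (interval -0.10 to 0.30), and Eif1b, a factor of start codon choice, 0.01 (interval -0.15 to 0.17). In each of these 4 the interval excludes a fall as large as the estimate for Eif2s3x. The X-linked start codon factor Eif1ax had estimates of 0.04 (interval -0.20 to 0.28) and 0.13 (interval -0.12 to 0.38) on its 2 probe sets, and its relative Eif1a -0.02 and -0.09 (SE 0.11 and 0.14). The brighter Eif1ax probe set was at 1055.4, 1153.9 and 1269.9 in XmO, against 1211.8, 1110.5 and 1221.1 in XX_Paf, with the groups overlapping in both crosses.

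There were 3 genes with probe sets whose XO estimates differed by over 0.5. Eif5b gave -0.81 (SE 0.29) on its dimmer probe set and 0.00 (SE 0.15) on the other. The dimmer one was at 64.1, 154.6 and 189.3 in XmO, against 184.1, 205.3 and 156.3 in XX_Paf. It was at 72.3 and 98.9 in XpO, against 157.3 and 198.6 in XX_InX, so that the groups overlap in the Paf cross only. Its value on XmO 1, 64.1, was below the Y-linked signal of that array, 67.7. Eif4ebp2, which encodes a repressor of the cap-binding protein eIF4E, gave -1.04 (SE 0.49) on its dimmer tested probe set and 0.03 (SE 0.11) on the brighter one. The arrays of a group lie far apart on the dimmer one: XmO 7 was at 110.5 where XmO 1 and 2 were at 529.1 and 520.3, and XpO 15 was at 105.1 where XpO 18 was at 659.5. The value of XmO 7 was below the Y-linked signal of that array, 136.6. Sars2, the mitochondrial seryl-tRNA synthetase gene, gave 0.34 (SE 0.23) and -0.29 (SE 0.20).

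The known targets of eIF2 phosphorylation did not pass either. Of 27 tested probe sets of 24 genes, 12 had higher and 15 lower estimates in XO, with a median of -0.03, and 2, both higher, had an unadjusted p under 0.05, or 7.41% beside 2.6% of all probe sets. Atf4 itself was at 0.00 (SE 0.09), and the asparagine synthetase gene Asns at 0.04 (SE 0.12) and -0.21 (SE 0.21) on its 2 probe sets. Ddit3, the stress transcription factor CHOP, had the smallest p of this list. It was at 165.0, 111.3 and 82.8 in XmO, against 41.4, 53.9 and 34.1 in XX_Paf, without overlap. It was at 120.8 and 107.1 in XpO, against 38.7 and 115.2 in XX_InX, with overlap (limma over both crosses, unadjusted p = 0.00959, adjusted p = 0.9995). All 3 XX_Paf arrays, 1 XmO array and 1 XX_InX array did not exceed the Y-linked signal. With each XX_Paf array set at the higher of that signal and its own, XmO was 1.54-fold higher than XX_Paf. This is not a lower bound, because the XmO array under the signal was kept at its own value. The folate enzyme Mthfd2 had 0.22 (SE 0.10). The stress-induced Nupr1 had -1.03 (SE 0.52).

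The 5 cytosolic synthetases whose promoter windows held TGATGNAA (Aars, Gars, Iars, Tars and Yars, 6 probe sets) had a median log2 fold change of 0.00 in XO against XX, with estimates from -0.15 to 0.16. The 5 without it (Eprs, Kars, Mars1, Qars and Sars) had a median of -0.10, with estimates from -0.25 to 0.08. Neither set held a probe set with an unadjusted p under 0.05 in this comparison. Other partners of the machinery, such as the synthetase complex scaffold Aimp1 and the recycling factor Abce1, had higher estimates for 10 of 17 probe sets, or 58.8% beside 50.1% of all. None passed by limma (0.0115% of all did) and 0 had an unadjusted p under 0.05, which at 2.6% of all probe sets says nothing about so short a list. Aimp1 had a log2 fold change of 0.17 (SE 0.10), the ribosome rescue factor Pelo 0.22 (SE 0.18) and -0.10 (SE 0.19) on its 2 probe sets, and Abce1 0.11 (SE 0.10).

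Within the Paf cross, XmO against XX_Paf, 0 of 85 members passed by limma (0.0230% of all probe sets did), and 6 had an unadjusted p under 0.05, or 7.06% beside 5.53% of all. Groups did not overlap for 3 members higher in XmO and 9 lower, where 6.96% and 6.97% of all probe sets did so, or 3.53% and 10.6% of the members. Higher were Lars, the leucyl-tRNA synthetase gene, at 1185.7, 1135.6 and 1054.9 in XmO against 917.6, 923.2 and 1013.1 in XX_Paf (log2 fold change 0.24, SE 0.11; limma adjusted p = 0.877). So was Eif3l, an eIF3 subunit gene, at 4257.2, 4570.0 and 4332.2 in XmO against 3946.5, 4031.6 and 3823.5 in XX_Paf (log2 fold change 0.16, SE 0.09; limma adjusted p = 0.887), and the tyrosyl synthetase gene Yars on its dimmer probe set (0.25, SE 0.19; brighter probe set -0.08).

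Of the 9 lower in XmO without overlap, those with the smallest p besides Eif2s3x were Sars and Etf1. The seryl synthetase gene Sars was at 521.1, 639.9 and 624.1 in XmO, against 822.9, 947.4 and 702.8 in XX_Paf (log2 fold change -0.47, SE 0.19; limma adjusted p = 0.877). Its highest array is XX_Paf 2, the array with the muscle signal, and without it the log2 fold change was -0.36. Etf1 encodes the release factor that reads stop codons, and on 1 of its 5 probe sets it was at 988.5, 974.2 and 832.5 in XmO, against 1207.8, 1098.5 and 1103.2 in XX_Paf (log2 fold change -0.29, SE 0.12; limma adjusted p = 0.877). Its other 4 probe sets overlapped between these groups, with log2 fold changes of -0.21, -0.01, 0.02 and 0.48. Summed markers of proliferating cells (7 probe sets of 6 genes, 5 of them above the Y-linked level on all arrays and none below it on all) ran from 1940.5 to 1955.0 in XmO and from 2210.8 to 2343.6 in XX_Paf, without overlap, and their part in these differences was not tested. In the In(X) cross the sums lay the other way, from 2475.9 to 2674.0 in XpO and from 2288.7 to 2400.1 in XX_InX, also without overlap. Taken singly, 2 of the 7 probe sets were lower in XmO without overlap, and 3 were higher in XpO. In the In(X) cross 2 of the 7 had lower estimates. The largest gap there was in Ccna2, at 704.2 and 953.6 in XpO against 656.5 and 664.9 in XX_InX.

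Within the In(X) cross, XpO against XX_InX, 0 of 85 members passed by limma (0.0115% of all did), and 6 had an unadjusted p under 0.05, or 7.06% beside 3.38% of all. Groups did not overlap for 12 members higher in XpO and 15 lower, or 14.1% and 17.6%, where 11.3% and 12.1% of all probe sets did so. Of the 12 higher, the smallest p was that of the tryptophanyl synthetase gene Wars on its brightest probe set. It was at 1251.6 and 1091.0 in XpO against 940.7 and 764.1 in XX_InX (log2 fold change 0.46, SE 0.16; limma adjusted p = 0.99975). The other Wars probe sets gave 0.22 and 0.55 with overlap. Vars, the valyl synthetase gene, was at 1232.5 and 864.1 in XpO against 853.4 and 610.3 in XX_InX (log2 fold change 0.52, SE 0.20), and the lower XpO array is close to the higher XX_InX array. Gspt1, which encodes the GTPase partner of Etf1, was at 1046.9 and 888.7 in XpO against 696.0 and 632.7 in XX_InX (log2 fold change 0.54, SE 0.23). Of the 15 lower in XpO, Eif2b2 had the smallest p after Eif2s3x. It was at 256.0 and 496.1 in XpO against 563.3 and 672.3 in XX_InX (log2 fold change -0.79, SE 0.29; limma adjusted p = 0.99975). The gap between the XpO arrays of Eif2b2 is wider than the gap between the groups, and leaving out 1 array at a time moved the log2 fold change between -1.27 (without XpO 18) and -0.31 (without XpO 15). For Vars it moved between 0.26 (without XpO 15) and 0.77 (without XpO 18). The dimmer probe set of Eif5b, given above, had -1.06 (SE 0.45).

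**Figure D3:**
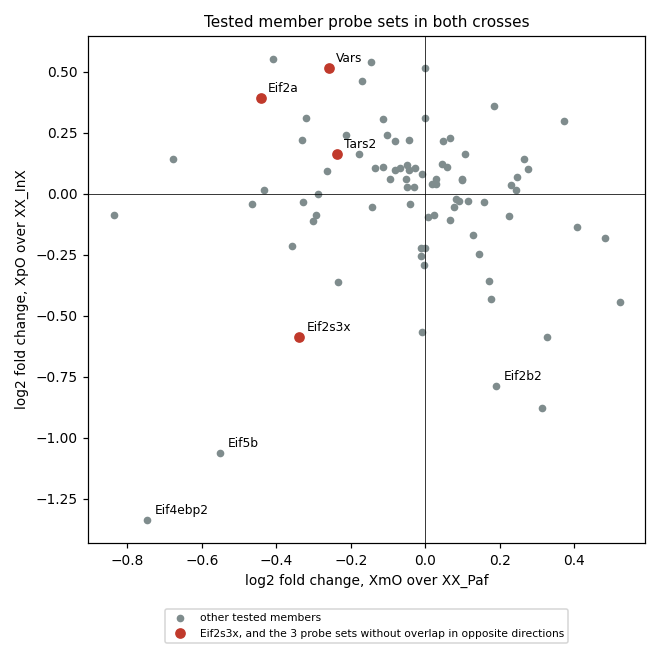
Log2 fold change of XmO over XX_Paf (horizontal axis) and of XpO over XX_InX (vertical axis) for the 85 tested member probe sets, 1 point each. Eif2s3x lies low in both crosses (-0.34 and -0.59), and Vars, Eif2a and Tars2 are lower in XmO and higher in XpO than in their XX controls.

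A difference between crosses in the effect of the single X passed for 0 of 85 members by limma (0.0230% of all probe sets), with 8 at an unadjusted p under 0.05, or 9.41% beside 5.91% of all. Arrays moved without overlap in opposite directions for 0 members higher and 3 lower in the Paf cross, where 0.897% and 1.13% of all did so. The 3 were Vars, Eif2a and the mitochondrial threonyl synthetase gene Tars2. The summed markers of proliferating cells given above run in the same directions, lower in XmO than XX_Paf and higher in XpO than XX_InX without overlap. Of their 7 probe sets, 1 did so taken singly. The part of these markers in the differences was not tested. Eif2a was at 241.1, 179.3 and 241.0 in XmO, against 308.0, 314.3 and 270.2 in XX_Paf. It was at 312.5 and 231.6 in XpO, against 206.8 and 203.1 in XX_InX (difference of the effects -0.84, SE 0.31; limma adjusted p = 0.832).

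XmO against XpO sets the maternal single X against the paternal one, with the cross differing too. There 0 of 85 members passed by limma (0.0115% of all did), and 5 had an unadjusted p under 0.05, or 5.88% beside 4.83% of all. Groups did not overlap for 6 members higher in XmO and 5 lower, where 8.59% and 8.83% of all probe sets did so, or 7.06% and 5.88% of the members. Between these groups the summed markers of proliferating cells did not overlap either, at 1940.5 to 1955.0 in XmO against 2475.9 to 2674.0 in XpO, with 4 of 7 probe sets lower in XmO without overlap, and their part was not tested. Cars, the cysteinyl synthetase gene, was at 427.2, 611.6 and 612.7 in XmO, against 358.6 and 334.2 in XpO (log2 fold change 0.65, SE 0.22; limma adjusted p = 0.780). Eif5, which triggers GTP hydrolysis by eIF2, was at 1133.4, 1093.2 and 1273.9 in XmO, against 1359.2 and 1512.8 in XpO (log2 fold change -0.30, SE 0.15). Eif3l was again higher in XmO (0.30, SE 0.10; limma adjusted p = 0.780) and the brighter Eif4ebp2 probe set lower (-0.33, SE 0.15; limma adjusted p = 0.969). The dimmest Wars probe set gave -0.76 (SE 0.31), and the other Wars probe sets overlapped between XmO and XpO (-0.24 and -0.08).

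XX_Paf against XX_InX compares the XX females of the crosses, and there more members had a small unadjusted p than in the other comparisons, as did all probe sets. Again 0 of 85 members passed by limma (0.0805% of all did), but 17 had an unadjusted p under 0.05, or 20% beside 13.8% of all, of which 13 were higher in XX_Paf. Groups did not overlap for 27 members higher in XX_Paf and 15 lower, or 31.8% and 17.6%, where 17.6% and 19.5% of all probe sets did so. Wars on its brightest probe set was at 1167.4, 1235.1 and 1334.8 in XX_Paf, against 940.7 and 764.1 in XX_InX (log2 fold change 0.55, SE 0.15; limma adjusted p = 0.185), and its other probe sets gave 0.03 and 0.20 with overlap. Eif4a2, a helicase that unwinds the mRNA leader, was at 7802.8, 7298.2 and 7094.0 in XX_Paf, against 5394.9 and 5211.8 in XX_InX (log2 fold change 0.48, SE 0.13; limma adjusted p = 0.185). Among the Etf1 probe sets 2 were higher without overlap (0.55, SE 0.18, and 0.40, SE 0.14), 1 was lower without overlap (-0.34, SE 0.24), and 2 overlapped (0.04 and -0.68). Of the 15 lower in XX_Paf, those with the smallest p were Eif1b (-0.33, SE 0.10), Eif2b2 (-0.71, SE 0.26) and the mitochondrial isoleucyl synthetase gene Iars2. Iars2 was at 350.8, 276.8 and 279.1 in XX_Paf against 485.5 and 473.7 in XX_InX (log2 fold change -0.67, SE 0.23; limma adjusted p = 0.247). The XX_InX arrays are also those of XpO against XX_InX, where Wars and Eif2b2 are named as well, so these entries are not independent.

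The cross differences of the XX arrays and of the single-X arrays use different arrays, and they can be set side by side. Of the 85 members, 46 had the same sign in both (54.1%, beside 57.2% of all probe sets). Arrays did not overlap in the same direction in both for 5 members: Eif6, Qars and Eif3l were higher in the Paf cross, and Eif1b and Eif4ebp2 lower. Eif1b was at 3961.7, 4228.9 and 3980.5 in XmO against 4715.3 and 4580.7 in XpO, and at 4054.4, 3807.3 and 3674.8 in XX_Paf against 5188.6 and 4486.0 in XX_InX. The brighter Eif4ebp2 probe set was at 1573.9, 1496.3 and 1187.6 in XmO against 1739.0 and 1800.5 in XpO, and at 1197.4, 1489.5 and 1475.8 in XX_Paf against 1783.9 and 1663.4 in XX_InX. By contrast, Eif4a2 overlapped between XmO and XpO. These 5 members are 5.88% of the 85, and 4.73% of all probe sets did the same. Summed erythroid markers (5 probe sets, 3 above the Y-linked level on all arrays) also differed by cross. They were at 11358.5 to 17366.9 in XmO against 6046.8 to 7516.0 in XpO, and at 11739.8 to 17040.1 in XX_Paf against 4092.2 to 6268.4 in XX_InX. Most of the sum is the globin genes Hba-a1 and Hbb-b2, the 2 of 5 that were higher without overlap in both comparisons. Hbb-bh1, a dim globin probe set, was lower in XX_Paf than in XX_InX without overlap, at 51.2, 69.2 and 58.0 against 90.4 and 76.7. The part of these markers in the member differences was not tested.

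**Figure D4:**
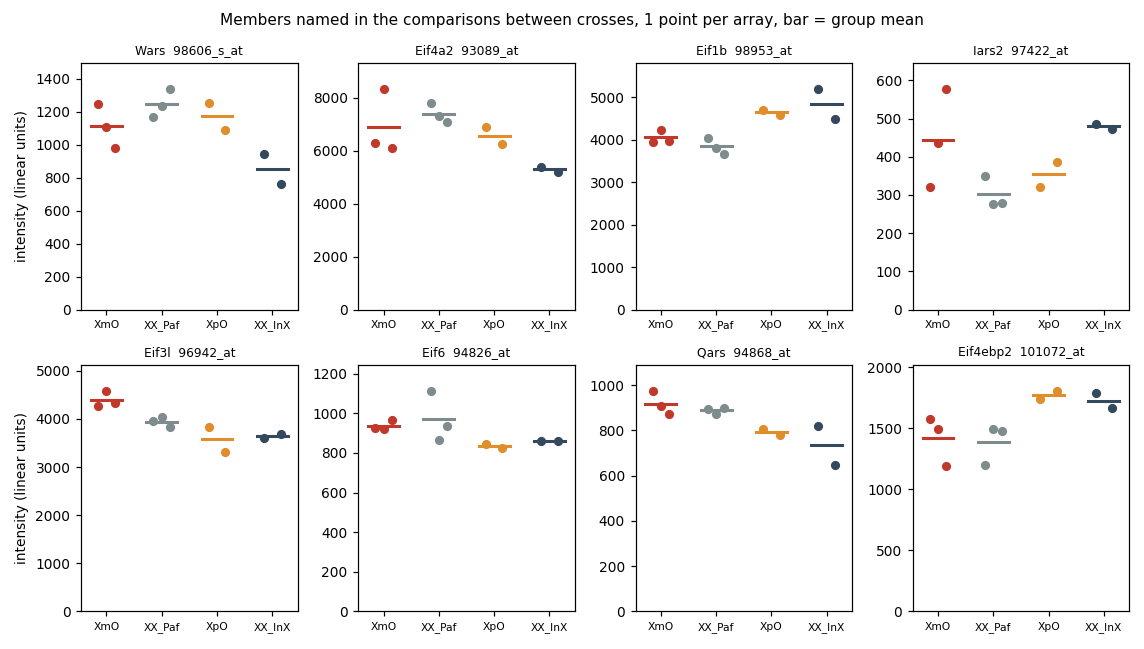
Intensity (linear units, vertical axes from 0) of 8 member probe sets in XmO, XX_Paf, XpO and XX_InX, with 1 point per array and a bar at the group mean. Eif1b and Eif4ebp2 are lower, and Eif3l, Eif6 and Qars higher, in the Paf cross in both genotypes, while Wars, Eif4a2 and Iars2 do not overlap between XX_Paf and XX_InX but overlap between XmO and XpO.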

How the data were processed

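The deposited files hold the authors' linear intensities, a value for each probe set on each array, and the algorithm that summarised the probes is not given in the sources used here. The trimmed mean (2% off each end) of each array is 500.3. Members and lists were chosen with earlier results of these data known. Controls (66 probe sets) were left out. Intensities under the 10th percentile (15.1) were raised to it, taken to log2, and the 8695 probe sets with a mean at or over the 30th percentile were tested with limma 3.58.1 in R 4.3.3 (1 mean per group, 10 arrays, 6 residual degrees of freedom, eBayes with trend), two-sided, with Benjamini and Hochberg adjustment within each comparison and a threshold of 0.05. No array was dropped or imputed in these fits. The number of arrays limits the precision. Genotype was permuted exactly within crosses for the Eif2s2 probe sets. Genes were named by the array's annotation (1 symbol for 10833 probe sets, several for 396, none for 1193), and chromosomes and promoters came from RefSeq, GRCm38.p6. Named were the eIF2 genes, up to 3 members without overlap per direction and comparison by p, the brightest genes, X- and Y-linked members, and those with discordant probe sets. Members named beyond this were chosen after their values were seen. On simulated data for XO against XX (8695 probe sets, 100 of them changed), 85.0% of changes of log2 1 and 39.0% of changes of log2 0.5 were recovered, with 4 false calls each. The adjustment is easier to pass with 100 changed probe sets than with few. In the data 1 probe set passed, so these shares are not the power of the reported test.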

Additional observations from a re-analysis of the deposited data

Results flagged for a closer look

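The arrays of 3 member probe sets did not overlap and moved in opposite directions in the crosses, and for none of them did the test of the difference pass (limma, adjusted over 8695 probe sets). Vars had a difference of the effects of -0.78 (SE 0.25; limma adjusted p = 0.832), with -0.26 in XmO against XX_Paf and 0.52 in XpO against XX_InX. Eif2a had a difference of -0.84 (SE 0.31; limma adjusted p = 0.832), from -0.44 and 0.39. Tars2 had a difference of -0.40 (SE 0.25; limma adjusted p = 0.874), from -0.24 and 0.16, and was at 344.1, 321.5 and 262.9 in XmO against 364.0, 349.8 and 374.6 in XX_Paf, and at 357.9 and 350.7 in XpO against 312.7 and 319.7 in XX_InX. The XpO value of Vars moves with single arrays, and leaving out 1 array at a time put its difference between -1.03 and -0.52. The summed markers of proliferating cells run in the same directions, at 1940.5 to 1955.0 in XmO against 2210.8 to 2343.6 in XX_Paf. They were at 2475.9 to 2674.0 in XpO against 2288.7 to 2400.1 in XX_InX. Of their 7 probe sets, 1 moved so without overlap taken singly, and the part of these markers was not tested.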

How the results depend on the processing

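The count of members called was 0 in all 6 comparisons by limma under every alternative run: log2(intensity + 16), a floor of 50, no filter, a filter at the 50th percentile, quantile normalization, no intensity trend, the groups of the comparison alone, the brightest probe set of each gene (XO against XX), the replicate block, and each array left out in turn. Eif2s3x in XO against XX ranged from -0.50 to -0.42 in log2, with limma adjusted p from 0.0638 to 0.548. Eif2s2 ranged from -0.24 to -0.03 on its brighter probe set and from 0.04 to 0.30 on the other. The difference between Eif2s3x and Eif2s2 was -0.43 to -0.20 over the arrays left out for the brighter Eif2s2 probe set and -0.80 to -0.51 for the second, and is a description. XmO and XX_Paf share only the numbers 1 and 2, whose deviations correlated at -0.01 and -0.04. Arrays of unlike number gave -0.08 to 0.09. No pairing by number was seen, but 2 pairs cannot exclude it, and the number 1 of XX_InX was not checked. With the replicate block the count of members was 0. Because XmO and XX_Paf hold the numbers 1 and 2 equally, the block leaves the estimates of XO against XX the same by construction (Eif2s2 -0.13 and 0.19, differences from Eif2s3x -0.34 and -0.65), which shows no stability. Over all probe sets the number called ranged over the alternatives from 1 to 4 in XO against XX (1 in the fit reported), 2 to 4 in XmO against XX_Paf (2), 1 to 6 in XpO against XX_InX (1), 1 to 7 in XmO against XpO (1), 0 to 4 in the difference between crosses (2) and 2 to 35 in XX_Paf against XX_InX (7). The 35 came from fitting those groups alone, the 6 from no filter and the 7 from leaving out XpO 15. The cause was not tested. Where a group of 2 lost an array, the lone one was taken to vary like the other groups. Recomputation for single members was chosen after seeing the data.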
